A study of Mus musculus with 6 samples.

Results

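The cytosolic ribosomal protein genes encode the protein shell of the ribosome that translates nuclear mRNAs. Members were taken by gene symbol, as Rpl, Rps, Rplp or Rpsa names without the suffix of a paralog, at a mean of at least 1 FPKM (fragments per kilobase of transcript, relative to sequencing depth) over the 6 libraries. All 77 genes matched by symbol passed that minimum, 46 of the large and 31 of the small ribosomal subunit, among 24908 genes in the table. 12361 genes passed the same minimum and were compared.

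Ribosomes are assembled in the nucleolus from ribosomal RNA and from proteins that are needed in near equal numbers, and excess copies of a single protein are degraded. The mRNAs of these genes begin with a run of pyrimidines, the terminal oligopyrimidine (TOP) tract, through which the mTOR pathway sets their translation. The transcription factor MYC is known to raise ribosome production in many tissues, through ribosomal RNA and ribosomal protein genes alike.

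RNA was sequenced from the anterior (AP), dorsolateral (DLP) and ventral (VP) lobes of the prostate of male FVB mice, 12 weeks old and fed a purified diet. WT lobes came from 1 wild-type mouse, and MYC lobes from 1 littermate heterozygous for a human c-MYC transgene under the ARR2Pb promoter, a derivative of the probasin promoter that is active in prostate epithelium and depends on androgen. Each lobe of each mouse was dissociated and gave 1 library, so that no difference has a replicate check and genotype cannot be told apart from mouse. In such bulk samples, fewer cells of a type and less RNA per cell cannot be told apart either.

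The Myc row was at 230.0 FPKM in WT AP, 200.6 in WT DLP and 226.4 in WT VP, and at 230.9, 586.1 and 1696 in the MYC lobes in the same order. It was higher in MYC DLP and MYC VP than in the WT lobe, but the library labelled MYC AP was at the level of WT AP, so that this row does not check the AP label. Whether reads of the human transgene are counted in this mouse row is not given in the sources used here. In this model the transgene is known to be active mainly in VP, with AP the least affected lobe. The depth recovered from the steps between low values was 25.4 to 49.7 M reads per library. Seminal vesicle genes summed to 511.9 FPKM in the library labelled MYC AP, where all 4 are listed at 0 in WT AP, and their part in the AP ratios was not tested. Luminal Krt8 was present in all 6 libraries, at 387.9 to 1292 FPKM.

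Promoter windows are shown first for genes that the results below turn on. They are the part from 120 bases before to 30 bases after the transcription start of longer RefSeq windows on GRCm38.p6 (mm10), printed 5′ to 3′ on the gene's strand. Capitals mark the E-box CACGTG that MYC and its partner MAX bind, searched on both strands. They also mark the ETS motif CCGGAAG on both strands, so that its reverse complement is in capitals too. The TATA motif TATAAA was searched on both strands as well, and the pyrimidine motif CTTTCC on the strand of the gene only. No 2 of these motifs overlapped in the windows printed. Rpl19 and Rpl23 are shown because they hold an E-box near the start, and Rpl39 because it led in AP. Rps26 and Rpl10 stood at the upper and lower end of the DLP and VP ratios, with Rpl26, Rpl30 and Rpl34 set aside.
Rpl19, chr11:98026590-98026739, plus strand: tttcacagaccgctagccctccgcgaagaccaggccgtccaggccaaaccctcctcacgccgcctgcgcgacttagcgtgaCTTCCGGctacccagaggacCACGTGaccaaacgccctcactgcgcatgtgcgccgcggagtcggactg
Rpl23, chr11:97782410-97782559, minus strand: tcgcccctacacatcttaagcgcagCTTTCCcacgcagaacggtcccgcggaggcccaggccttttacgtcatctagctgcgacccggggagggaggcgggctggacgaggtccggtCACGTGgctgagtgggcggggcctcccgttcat
Rps26, chr10:128626477-128626626, minus strand: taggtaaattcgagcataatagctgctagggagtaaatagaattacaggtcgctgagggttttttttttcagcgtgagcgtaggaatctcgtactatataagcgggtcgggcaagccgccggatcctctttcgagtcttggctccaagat
Rpl10, chrX:74270696-74270845, plus strand: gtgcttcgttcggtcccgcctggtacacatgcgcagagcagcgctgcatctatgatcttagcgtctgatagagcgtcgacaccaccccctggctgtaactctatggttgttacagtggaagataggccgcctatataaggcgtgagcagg
Rpl39, chrX:37085193-37085342, minus strand: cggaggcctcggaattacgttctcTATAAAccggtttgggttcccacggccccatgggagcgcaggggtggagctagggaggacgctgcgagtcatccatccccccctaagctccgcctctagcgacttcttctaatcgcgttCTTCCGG
Rps26 and Rpl10, at these opposite ends in DLP and VP, hold none of these letters in the windows shown.

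Of the members, 57 had 1 or more RefSeq windows and 20 had none, among them Rplp1, Rps29 and Rpl30. The search covered the longer windows, from 250 bases before to 50 after the start. CACGTG was in 8 of the 67 member windows (11.9%), against 7.15% of all 32851 windows. Counted by gene, since a gene can have several windows, it was in 6 of 57 members (10.5%) and 8.09% of all genes with a window. CCGGAAG was in 37.3% of member windows and 8.86% of all, CTTTCC in 38.8% and 14.1%, and TATAAA in 8.96% and 13.6%. By gene these shares were 42.1% and 9.93%, 40.4% and 16.0%, and 10.5% and 15.7%. The longest run of pyrimidines within 30 bases of the start had a median of 8 bases in member windows and 5 in all windows. The 6 genes with an E-box in these longer windows were Rpl13a, Rpl14, Rpl19, Rpl23, Rpl34 and Rps19. Without Rpl26 and Rpl34, whose rows are described with their copies, the genes with an E-box had a median log2 ratio of MYC VP to WT VP of 1.37, beside 1.36 for the 50 others with windows that lack one. In DLP the medians were 0.68 with and 0.69 without an E-box, and in AP they were 0.30 and 0.29. Medians with and without an E-box lay close together in each lobe, and the ratios were not compared by the other motifs.

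In WT lobes the ribosomal protein genes were among the most abundant mRNAs and took up a near equal share of each library. They held 13.1% of the summed FPKM in WT AP, 14.0% in WT DLP and 13.0% in WT VP. The share was 15.1% in the library labelled MYC AP, and reached 21.8% in MYC DLP and 27.9% in MYC VP. MYC VP was the highest and MYC DLP the second highest, and the 4 others lay close together. Since FPKM are relative, a larger share for these genes leaves a smaller one for others.

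**Figure D1:**
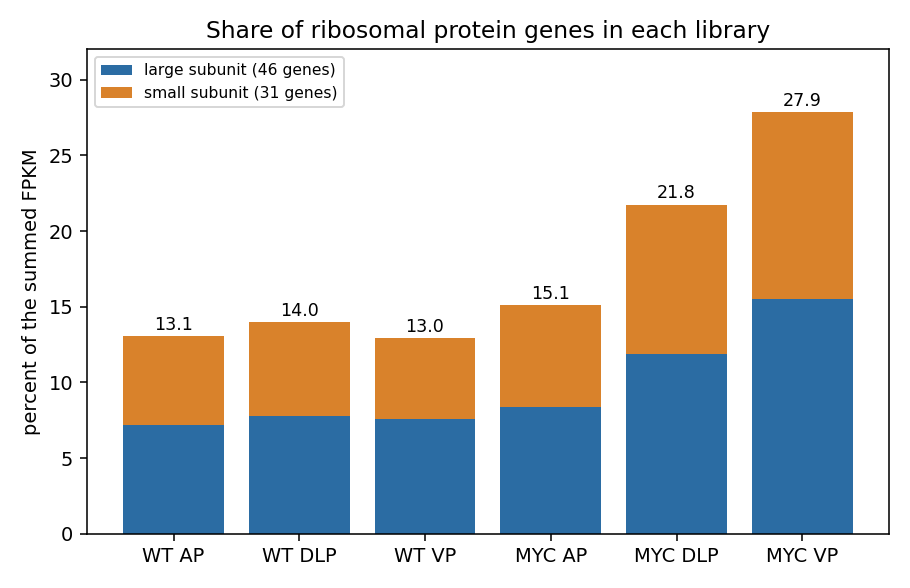
Percent of the summed FPKM of each library (vertical axis) held by the 77 ribosomal protein genes, stacked by subunit, 1 library per bar with no error. The share lay between 13.0% and 15.1% in the 3 WT lobes and the library labelled MYC AP, and was 21.8% in MYC DLP and 27.9% in MYC VP.

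The median member stood at 547.6 FPKM in WT AP, 696.3 in WT DLP and 580.7 in WT VP. In the MYC lobes, in the same order, it stood at 682.0, 1123 and 1487. Members of the upper quartile were between 2.22 and 2.61 times the level of the lower quartile in every library, so that the spread among members, on the FPKM scale and per length, changed little while the median moved. Of the 77 members, 75 had their highest level in MYC VP and their second highest in MYC DLP, and the exceptions were Rpl26 and Rpl30. The lowest library was WT AP for 54 members and WT VP for 17.

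**Figure D2:**
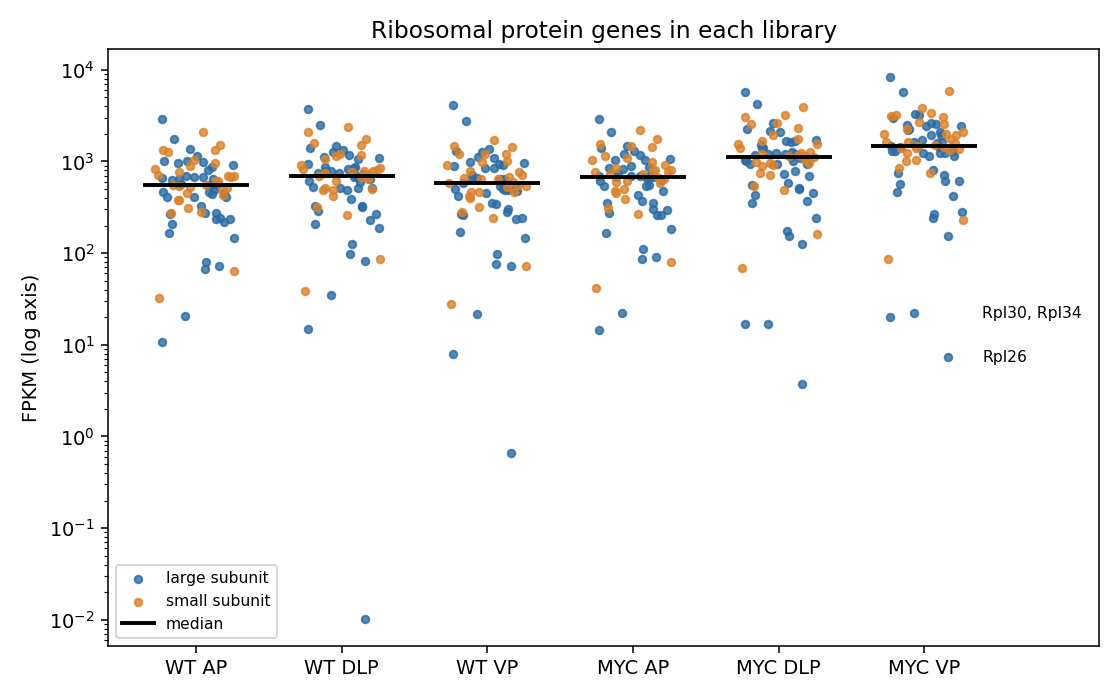
FPKM of each ribosomal protein gene (log axis) in the 6 libraries, points by subunit, bars at the median. The whole cloud stands higher in MYC DLP (median 1123) and MYC VP (median 1487) than in the WT lobes (547.6 to 696.3), and Rpl30, Rpl34 and, outside AP, Rpl26 lie far below it.

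The member with the highest FPKM in each library was Rplp1 (chr9:61913283-61914510), an acidic protein of the stalk that recruits elongation factors to the ribosome. Rplp1 was at 2875, 3722 and 4131 FPKM in WT AP, DLP and VP, and at 2939, 5762 and 8431 in the MYC lobes in that order. Next by mean came Rpl41, which encodes a very short peptide, at 1774, 2519 and 2764 in the WT lobes and 2111, 4193 and 5726 in the MYC lobes. Rps26, Rps27 and Rps29 completed the upper 5, with 1347 to 2395 FPKM in the WT lobes. At the lower end Rpl22 was at 71.7 to 81.7 FPKM in WT and 153.3 in MYC VP, and Rps15a at 27.8 to 39.1 in WT and 86.0 in MYC VP. With the copy rows described below added, Rps15a was at 51.0 to 77.8 in WT and 194.4 in MYC VP. Rpl26, Rpl30 and Rpl34 lay lower still in 1 or more libraries.

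In VP, the ribosomal protein genes were higher in MYC almost without exception. The median log2 ratio of (FPKM + 1) was 1.35, a 2.55-fold difference, with quartiles of 1.20 and 1.60. Of 77 members, 70 reached 2-fold higher in MYC VP and 0 reached 2-fold lower, where 6.88% of all genes compared were 2-fold higher and 5.95% 2-fold lower. The median of all genes compared was 0.04. The 2-fold count was 50 to 76 over the other scalings of the libraries. The members' median was 1.26 to 1.39 above that of all genes under them. Each scaling multiplies all genes of a library by the same factor, so this gap could hardly move and is no check on the difference.

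In DLP, the difference had the same direction and was smaller. The median log2 ratio was 0.68 (quartiles 0.57 and 0.78), a 1.60-fold difference. Above 0 were 76 of 77 members, beside 53.5% of all genes. Only Rpl26, Rps26 and Rps12 reached 2-fold higher, 3 members where 6.46% of all genes did, and Rpl30 was 2-fold lower, where 3.39% did. The count of 3 was 1 to 7 over the other scalings, and 2 with the copy rows described below added, when Rpl26 had a ratio of 0.66. The members' median was 0.61 to 0.65 above that of all genes under the other scalings, which could hardly move this gap.

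In AP, the library labelled MYC had slightly higher values, and none of the 77 members was 2-fold higher or lower, where 2.05% of all genes were 2-fold higher and 0.599% lower. The median log2 ratio was 0.29 (quartiles 0.15 and 0.37), beside 0.13 for all genes. It was 0.14 with size factors from medians of ratios, with 57 members above 0 in place of 73, where 49.5% of all genes were above 0 in place of 66.4%. The gap to the median of all genes was 0.14 to 0.18 under the other scalings, which could hardly move it. At a threshold of 1.5-fold, 1, 55 and 76 members were higher in MYC in AP, DLP and VP, where 7.53%, 13.4% and 16.7% of all genes were. At 4-fold, 0, 1 and 2 members were, where 0.542%, 1.59% and 1.2% of all genes were.

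**Figure D3:**
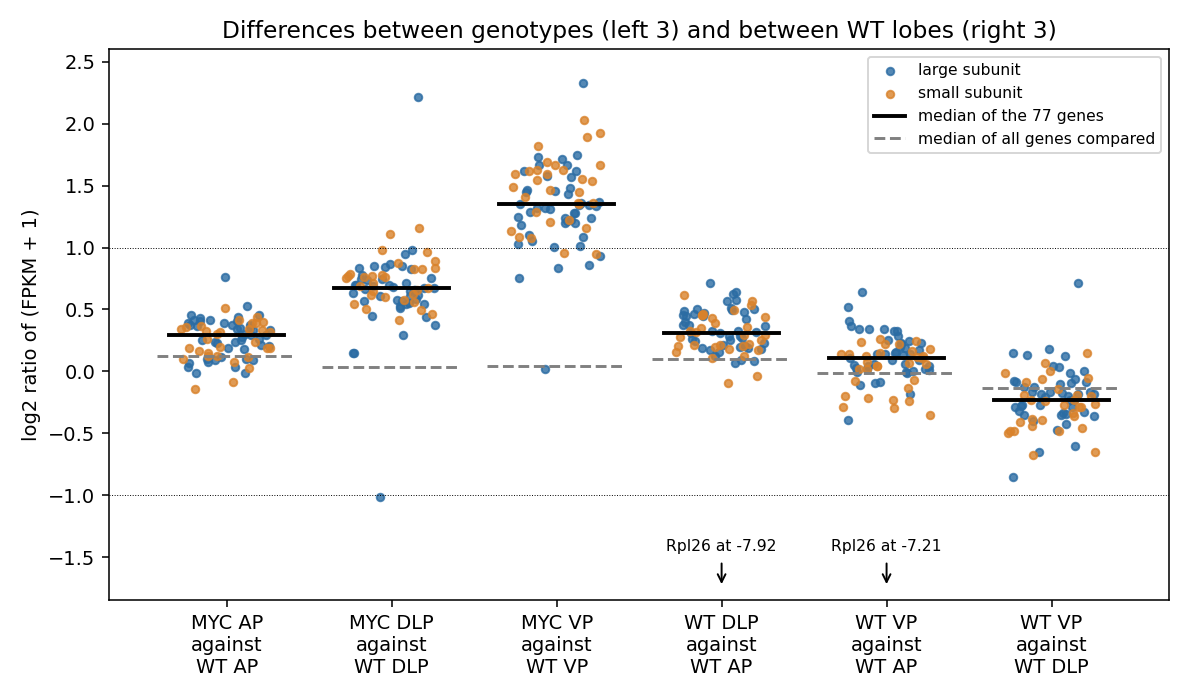
Log2 ratio of (FPKM + 1) for each ribosomal protein gene (points, by subunit) in the 3 comparisons of MYC with WT and the 3 of WT lobes, with the members' median (solid bar), the median of all genes compared (dashed bar) and dotted lines at 2-fold. The members' median is 0.29 in AP, 0.68 in DLP and 1.35 in VP, beside 0.31, 0.11 and -0.23 between WT lobes, where the sign for WT VP against WT AP (0.11) depends on the scaling.

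Differences between lobes of the WT mouse were, on FPKM as deposited, smaller than those between genotypes in DLP and VP and up to about as large as that in AP. The members' median log2 ratio was 0.31 for WT DLP against WT AP, 0.11 for WT VP against WT AP and -0.23 for WT VP against WT DLP. No member was 2-fold higher in these comparisons, where 3.85%, 7.89% and 2.63% of all genes were. Rpl26 alone was 2-fold lower, in WT DLP and in WT VP against WT AP, where 1.31% and 10.3% of all genes were, and 0 members were in WT VP against WT DLP, where 6.29% were. At 1.5-fold, 4, 1 and 1 members were higher in WT DLP against AP, VP against AP and VP against DLP, where 12.2%, 17.1% and 6.93% of all genes were, and none at 4-fold, where 0.704%, 1.73% and 0.688% were. These small medians depended on the scaling. With equal sums of FPKM they became 0.10, -0.021 and -0.15, and with scaling to Krt8 and Krt18, which were higher in WT VP than in the other WT lobes, 0.26, -1.50 and -1.80.

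Each MYC ratio was set beside the WT lobe ratio with which it shares no library. For 75 of 77 members the size of the VP ratio exceeded that of WT DLP against WT AP, as it did for 61.6% of all genes. For 74 of 77 the DLP ratio exceeded that of WT VP against WT AP (36.7% of all genes). For 40 of 77 the AP ratio exceeded that of WT VP against WT DLP (39.3% of all genes). In AP, the genotype and the lobe ratios were of similar size, with medians of 0.29 and 0.23 regardless of sign.

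Markers of other cell types also differed between the libraries. The 7 hematopoietic markers were Ptprc, Cd74, Lyz2, Cd3e, Cd52, Laptm5 and Coro1a. They summed to 130.0 FPKM in WT VP beside 377.6 in MYC VP, and to 294.7 in WT DLP and 1138 in MYC DLP. In AP they summed to 599.5 in WT and 444.2 in MYC. At least 2-fold higher in MYC DLP, VP and AP were 7, 5 and 0 of 7, where 6.46%, 6.88% and 2.05% of all genes were. The 5 proliferation markers (Mki67, Top2a, Ccnb1, Cdk1 and Birc5) summed to 2.52 FPKM in WT VP beside 44.4 in MYC VP, to 2.78 and 43.7 in DLP, and to 4.37 and 14.6 in AP. The 6 fibroblast markers summed to 648.1 and 194.9 in VP, 1284 and 698.5 in DLP and 1201 and 1365 in AP, with median log2 ratios of -1.09, 0.36 and 0.94. The 5 smooth muscle markers had medians of -0.88, -1.18 and 0.76 in VP, DLP and AP, and the 5 basal markers -0.59, 0.48 and -0.21. No marker of these 5 lists was listed at 0 in any library, and their part in the ribosomal protein ratios was not tested.

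Both subunits took part. In VP the median log2 ratio was 1.32 for the large subunit and 1.49 for the small subunit. There 41 of 46 and 29 of 31 genes were 2-fold higher, where 6.88% of all genes were. In DLP the medians were 0.66 and 0.75, and in AP 0.29 and 0.26. Single members other than Rpl26, Rpl30 and Rpl34 had a standard deviation of 0.27 in VP, 0.17 in DLP and 0.16 in AP, and the gap between the subunits was not tested.

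The stalk proteins did not share 1 ratio. Rplp0, the core of the stalk, was at 714.0 FPKM in WT VP beside 2265 in MYC VP, a log2 ratio of 1.66. Its partners Rplp1 and Rplp2 had lower ratios, 1.03 and 0.84, and Rplp2 was among the 3 lowest members in VP, at 1357 FPKM in WT and 2423 in MYC. In DLP the stalk genes lay closer, at 0.85 for Rplp0, 0.63 for Rplp1 and 0.68 for Rplp2. In AP they were at 0.41, 0.03 and 0.19.

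Rpl5 and Rpl11 form a particle with 5S ribosomal RNA that can bind Mdm2, the ligase that targets p53. Rpl5 was at 480.6 FPKM in WT VP beside 1138 in MYC VP, and Rpl11 at 262.8 and 565.5. Their log2 ratios were 1.24 and 1.10 in VP, 0.44 and 0.57 in DLP, and 0.21 and 0.40 in AP. Both lay below the members' median in VP and DLP.

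Rps6, the small subunit protein phosphorylated by S6 kinase, was at 532.1, 609.2 and 638.5 FPKM in WT AP, DLP and VP and at 610.9, 925.8 and 1477 in the MYC lobes. Its VP ratio of 1.21 was below the members' median. Rpsa, which is also known as a laminin receptor precursor, was at 455.0, 489.5 and 467.9 in the WT lobes and 496.5, 965.1 and 1418 in the MYC lobes, with ratios of 0.98 in DLP and 1.60 in VP that were above it. Rps27a, made as a fusion with ubiquitin, was near the median, at 416.8 in WT VP and 1021 in MYC VP (log2 ratio 1.29).

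Rps26 (chr10:128624529-128626506) had the highest ratio in VP and DLP among members whose row is the larger part of the reads of its sequence. It encodes a protein near the channel through which mRNA leaves the small subunit. Rps26 was at 1502, 1747 and 1431 FPKM in WT AP, DLP and VP, and at 1774, 3897 and 5852 in the MYC lobes. Its log2 ratios for AP, DLP and VP were 0.24, 1.16 and 2.03, a 4.09-fold difference in VP. Rps12 was second among them in DLP, with 1208 FPKM in WT and 2613 in MYC (log2 ratio 1.11).

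Rpl10 (chrX:74270816-74273135) joins the large subunit last and is needed for it to pair with the small one. Its ratios were at the other end in DLP and VP, with Rpl30 and Rpl34 set aside. Rpl10 was at 663.8, 933.1 and 882.4 FPKM in WT AP, DLP and VP and at 696.5, 1036 and 1487 in the MYC lobes. Its ratios were 0.07, 0.15 and 0.75, in DLP 0.52 below the members' median and out of line by the rule used here, a deviation over 3 times the scaled median absolute deviation and over 0.3. The sign of the DLP ratio depended on the scaling, at -0.08 with scaling to Krt8 and Krt18 and -0.016 with equal sums without the 20 highest genes.

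Rpl39 (chrX:37082518-37085222), a small protein that lines the exit tunnel of the nascent chain, was the single member out of line in AP. It was at 409.7 FPKM in WT AP and 695.5 in the library labelled MYC AP, a log2 ratio of 0.76, the highest there. In VP it was at 451.7 and 1239 (log2 ratio 1.45), near the median. Rpl13a and Rps12 came next in AP, at 0.53 and 0.51, and Rps28, Rps2 and Rpl27 were lowest, at -0.14, -0.09 and -0.02. Between WT lobes, Rpl41 was out of line in WT VP against WT AP, at 0.64. Rpl26 and Rpl34 were too, at -7.21 and -0.39 there and at 0.71 and -0.85 in WT VP against WT DLP. In WT DLP against WT AP only Rpl26 was, at -7.92.

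Members with a higher ratio in VP tended to have a higher one in DLP. Across the 74 members other than Rpl26, Rpl30 and Rpl34, Pearson's r was 0.67 and Spearman's rho 0.68 between the VP and DLP ratios, which share no library but share the mice, transcript lengths and base composition. Between VP and AP ratios r was 0.09, and between DLP and AP 0.17. The points are genes of the same libraries and no replicates of a condition. With the members' log2 mean FPKM, r was -0.27 for the AP ratios, 0.06 for DLP and -0.08 for VP. With transcript length (72 members with a length) it was 0.11, 0.12 and 0.20 in that order.

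**Figure D4:**
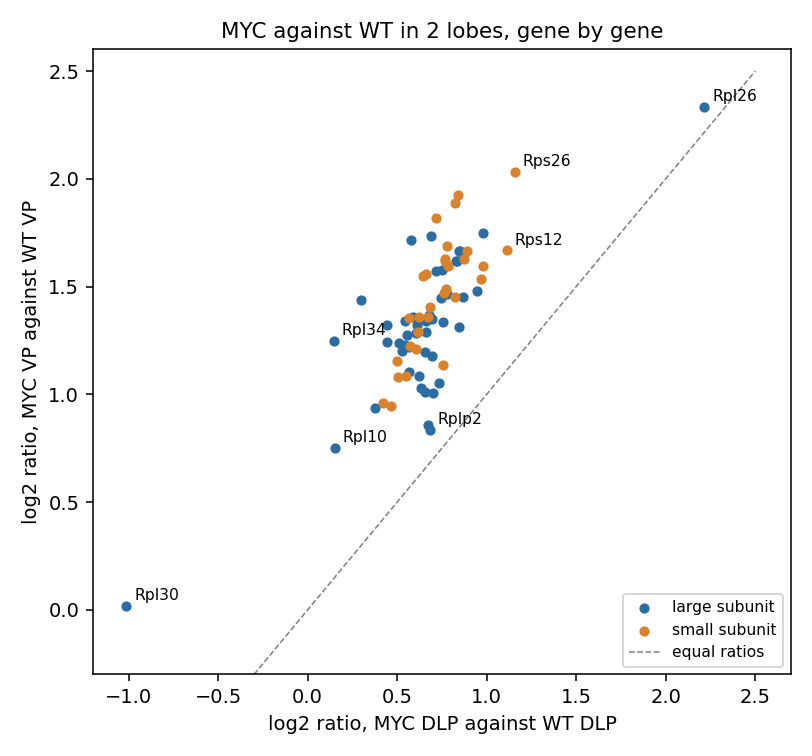
Log2 ratio of MYC to WT in DLP (horizontal) and in VP (vertical) for the 77 ribosomal protein genes, by subunit, with a dashed line where both are equal. All 77 lie above that line, and Rpl26 and Rpl30 lie at its ends, apart from the cloud around 0.68 in DLP and 1.35 in VP.

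3 members had low rows that were out of line in some ratios, and each had a second row of nearly the same sequence. Rpl26 (chr11:68901566-68904534) lines the exit tunnel. It was listed at 243.7, 0.01 and 0.66 FPKM in WT AP, DLP and VP and at 260.2, 3.69 and 7.33 in the MYC lobes. Its level was high in both AP libraries and near 0 in the 4 others, and in WT DLP it stood for less than 1 estimated read. The Gm15772 row (chr5:3236390-3236928) was at 770.3, 1131 and 1039 in the WT lobes and 1015, 1781 and 2543 in the MYC lobes. With both rows added, the log2 ratios became 0.33 in AP, 0.66 in DLP and 1.29 in VP, close to the members' medians, in place of 0.09, 2.22 and 2.33.

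Stretches of the coding sequences of Rpl26, Rpl30 and Rpl34 are shown because each gene has such a second row. The stretches come from GENCODE M1 and are numbered from the first base of the start codon. Each spans all differences from the second row's transcript, with 30 bases on either side. Capitals mark the bases at which the second row's transcript differs.
Rpl26 beside Gm15772, bases 147 to 318: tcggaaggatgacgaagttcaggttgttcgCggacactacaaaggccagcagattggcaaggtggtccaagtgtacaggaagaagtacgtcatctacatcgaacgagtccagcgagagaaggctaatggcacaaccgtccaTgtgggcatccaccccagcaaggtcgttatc
Rpl30 beside Gm12191, bases 66 to 126: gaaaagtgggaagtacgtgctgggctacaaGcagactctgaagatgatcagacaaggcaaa
Rpl34 beside Rpl34-ps1, bases 102 to 348: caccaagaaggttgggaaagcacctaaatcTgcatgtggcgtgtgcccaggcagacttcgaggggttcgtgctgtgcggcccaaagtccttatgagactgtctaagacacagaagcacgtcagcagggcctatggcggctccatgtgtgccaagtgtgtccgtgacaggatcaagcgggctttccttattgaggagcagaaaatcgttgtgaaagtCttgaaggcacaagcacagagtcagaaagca
Rpl26 and Gm15772 differ at 2 of 438 bases, Rpl30 and Gm12191 at 1 of 348, and Rpl34 and Rpl34-ps1 at 2 of 354. Of all stretches of 75 bases, the length of a read, 58.8%, 72.6% and 60.0% of these coding sequences are the same in both rows. How reads were divided between the rows was not tested.

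Rpl30 (chr15:34440505-34443276) was listed at 20.8, 34.6 and 21.7 FPKM in the WT lobes and 22.1, 16.7 and 22.0 in the MYC lobes, with log2 ratios of -1.01 in DLP and 0.02 in VP, the lowest of all members in both. The VP ratio was -0.24 to 0.26 over the other scalings. The Gm12191 row (chr11:49678620-49679143) was at 518.4, 581.1 and 577.2 in the WT lobes and at 649.0, 880.9 and 1078 in the MYC lobes. Added together, the 2 rows had ratios of 0.32, 0.54 and 0.88 in AP, DLP and VP, so that the direction in DLP turned. Rpl34 (chr3:130726827-130730398) was at 10.7 to 20.1 FPKM except in WT VP, at 7.87. Its DLP ratio of 0.14 was out of line, while Rpl34 was at 0.39 in AP and 1.25 in VP, near the members' medians. With the Rpl34-ps1 row (chr6:71124589-71125001), at 323.7 to 834.7 FPKM, it had ratios of 0.29, 0.55 and 1.21.

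**Figure D5:**
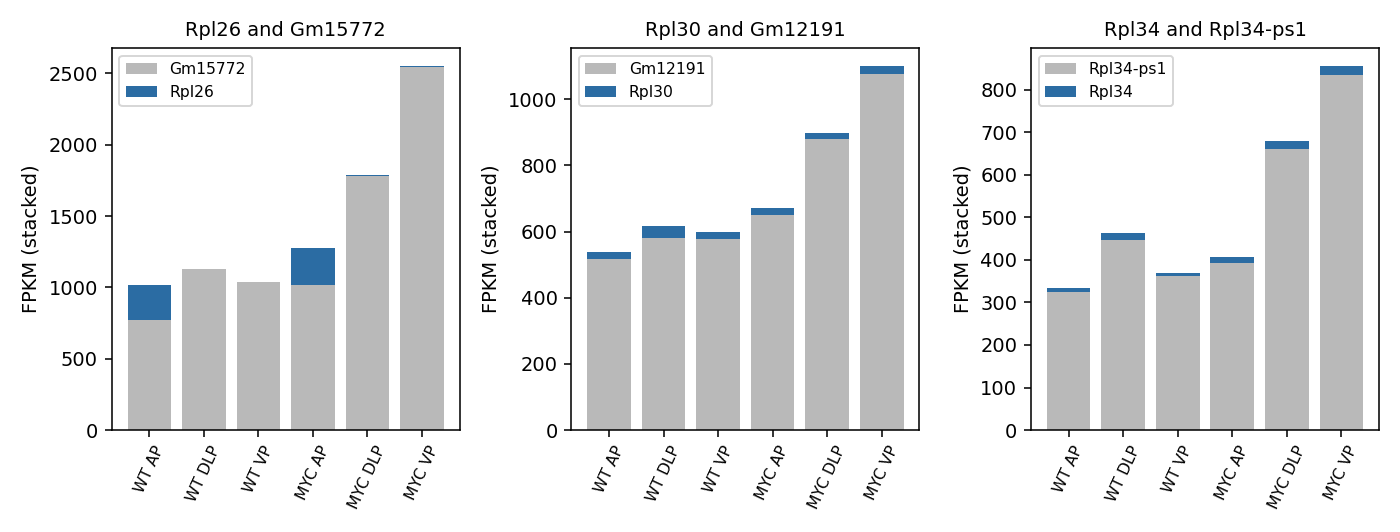
FPKM of Rpl26, Rpl30 and Rpl34 (blue) stacked on that of the second row of nearly the same sequence (grey) in each library. The second row is the larger part in every library, and the stacks are highest in MYC VP, at 2551, 1100 and 854.8 FPKM.

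In all, 15 members had 17 such rows, by sequence (at least 95% identity over 80% of the coding sequence) or by name. In the other 12 the member's own row had a higher mean than any single copy row. For Rps15a, with 2 copy rows, its own row held 86.0 of the summed 194.4 FPKM in MYC VP. The median ratio over the members moved little when the rows were added, to 1.36 in VP. 1 such row stood apart in a single library. Rps27rt, named for Rps27, was at 93.7 FPKM in MYC DLP and at 0.17 to 6.29 in the other 5, while Rps27 itself was at 3202 in MYC DLP.

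Ribosomal proteins under other symbols were also higher in MYC VP. Rack1, a scaffold on the small subunit, was at 369.9 FPKM in WT VP beside 1472 in MYC VP (log2 ratio 1.99). Fau, made as a fusion of a ubiquitin-like protein with a small subunit protein, was at 745.2 and 1459 (0.97).

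Paralogs can replace a ribosomal protein in some tissues. Of 8 listed, 5 passed the minimum. Of these, 4 were above 0 in VP, 2 in DLP and 3 in AP, where 53.2%, 53.5% and 66.4% of all genes were. Rpl22l1, the paralog of Rpl22, was at 41.4 FPKM in WT VP beside 144.9 in MYC VP (log2 ratio 1.78), above the ratio of Rpl22 itself (1.08). Rps27l was at 162.8 and 278.1 (0.77). Rps4l, close to the minimum, was at 1.73 in WT VP and 0.30 in MYC VP (log2 ratio -1.07), and Rpl36al was at 647.1 and 701.1 (0.12). Rpl39l and Rpl3l were at or near 0, and Rpl10l is listed at 0 in all 6 libraries.

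Other mRNAs that begin with a TOP tract, 14 genes for elongation and initiation factors and partners, lay between the members and all genes. Median log2 ratios of 0.22, 0.47 and 1.15 were found for AP, DLP and VP. The number 2-fold higher or more was 0, 1 and 10 of 14, where 2.05%, 6.46% and 6.88% of all genes were. None was 2-fold lower, where 0.599%, 3.39% and 5.95% of all genes were. Eef1b2, an exchange factor for elongation factor 1, was at 145.8 FPKM in WT VP beside 575.5 in MYC VP (log2 ratio 1.97). Npm1, a nucleolar chaperone, was at 277.0 and 904.3 (1.70), and Tpt1 at 2131 and 3567 (0.74).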

How the data were processed

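The 6 libraries were 1 per lobe and genotype, grouped by the sample titles. The authors mapped single-end reads of 75 bases with STAR and quantified genes with Cufflinks, and the submitters' processing notes name bcl2fastq 2.18 and mm10. The study's methods speak of read counts and DESeq2, but the deposited table holds FPKM that are not whole numbers and sum to 374085 to 483143 per library, so no count model and no p-value was computed. The members and gene lists were chosen with earlier results of these data known.

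Log2 ratios of (FPKM + 1) were computed for 12361 genes that averaged 1 FPKM or more over the libraries. A 2-fold ratio was called, and a member was out of line when it deviated from the members' median by over 3 times the scaled median absolute deviation and over 0.3. Members were named when they had the 5 highest or 5 lowest means, were out of line, had the 3 highest or lowest ratios in a lobe, or belonged to a listed functional group. Rps27rt and the copy rows, and examples among other lists, were named after their values were seen. Some genes that these rules name are left out here.

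Depth was estimated from steps between low FPKM of long single-exon genes. Of these values 49.0% to 54.2% lay within 3% of a whole read, against 6% by chance, which is not nearly all, so no count test was run. The estimated reads served only for depth and counting intervals, which are approximate. The median member had an estimated 16874 reads per library, a 95% counting half-width of 0.04 on the log2 scale, which covers counting error only. Lengths and copies came from GENCODE M1 (BLAST 2.17.0), coordinates and promoter windows from RefSeq GRCm38.p6 by symbol, for all 77 members and 57 members respectively. The calculations were tested on simulated data. Alternatives were 4 scalings (size factors, equal sums, equal sums without the 20 highest genes, Krt8 and Krt18), a pseudocount of 0.1, other minimums and thresholds, and, chosen after seeing the data, summed copy rows, the removal of Rpl26, Rpl30 and Rpl34, and equal sums without the ribosomal protein genes. Python 3.11.15, numpy 2.4.6 and pandas 2.3.3 were used.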

Additional observations from a re-analysis of the deposited data

Results flagged for a closer look

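Rps2 and Rps28 were the members with a ratio below 0 in AP, beyond an approximate counting interval, and above 0 in DLP and VP. Rps2 had log2 ratios of -0.09, 0.87 and 1.63 in these lobes, so that the DLP ratio was 0.96 and the VP ratio 1.71 above that of AP. Rps28 had ratios of -0.14, 0.69 and 1.41, with DLP 0.83 and VP 1.55 above AP. With 1 library per group these differences were not tested, and the AP ratios became 0.08 and 0.03 when scaled to Krt8 and Krt18.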

How the results depend on the processing

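No paired analysis was possible because each genotype is 1 mouse: MYC and WT could be paired by lobe, but the lobes of a mouse are not replicates of its genotype, and no such fit was run. With 1 library per lobe and genotype, no replicate could be left out. The members' medians kept within the spread among members, and the 2-fold counts within 1.5 times, in 89 of the alternative values, and 19 moved. Other minimums on FPKM could not move them, since all 77 members pass each. Medians with a pseudocount of 0.1, or without Rpl26, Rpl30 and Rpl34, could hardly move either. The spread was 0.16 in AP and 0.19 for WT VP against WT AP, beside medians of 0.29 and 0.11. An AP median of 0.14 with size factors is therefore among the 89. So is the -0.021 with equal sums for WT VP against WT AP, where the sign turned. Scaling to Krt8 and Krt18 gave medians of 0.46 in AP and 0.44 in DLP, 1 member 2-fold higher in DLP, and -1.50 and -1.80 for WT VP against WT AP and WT DLP. Equal sums without the 20 highest genes gave 1 member 2-fold higher in DLP, a VP median of 1.08, and, with these genes (5 of them members) left out of the sum, shares of 11.9%, 13.8% and 12.7% in WT AP, DLP and VP and 13.7%, 19.8% and 27.4% in MYC. Equal sums of FPKM gave 0.10 for WT DLP against WT AP. Without the ribosomal protein genes in the sums it was 0.12, with 7 members 2-fold higher in DLP. Size factors gave -0.013 for WT VP against WT DLP, and a pseudocount of 0.1 gave 1 member (Rpl26) 2-fold higher there. At 1.5-fold, 1, 55 and 76 members were higher in AP, DLP and VP, where 7.53%, 13.4% and 16.7% of all genes were. In WT DLP against AP, VP against AP and VP against DLP, 4, 1 and 1 were, beside 12.2%, 17.1% and 6.93% of all genes. At 4-fold, 1 member was higher in DLP and 2 in VP, where 1.59% and 1.2% of all genes were. Adding the copy rows turned the DLP ratio of Rpl30 to 0.54. Of 75 ratios of named genes, 13 took another sign under 1 or more alternatives, 9 of them in AP, and apart from Rpl30 in DLP each was at most 0.15 in size. WT AP has the fewest reads (25.4 M). Apart from Rpl26, the widest counting half-width of a ratio was 0.39 on the log2 scale, for Rpl34.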
